A study of Mus musculus with 10 samples.

Results

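Interstitial cells of Cajal (ICC) sorted from the muscle layer of mouse colon were set against unsorted colonic SM tissue, the smooth muscle layer with all of its cell types. The comparison rests on 2 of the 10 RNA-seq libraries of the study, 1 library a side. Of 17757 gene symbols in the colonic table, 13105 reached 1 FPKM in one library or the other and were compared. FPKM counts the sequenced fragments of a transcript, scaled to its length and to the size of the library. A gene's level is the sum over its transcript variants, with variants under 0.025 FPKM set to 0, and log2 ratios are of colonic ICC over colonic SM tissue on FPKM + 1. The added 1 shrinks the ratios of weakly expressed genes. A gene is called higher or lower here where that ratio reached 4-fold. Plain ratios of FPKM are written as "times". No side has a replicate, so no test was possible and every difference stands without a replicate check.

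The colonic ICC library came from sorted primary cells and the colonic SM tissue library from an unsorted cell mixture. The labels list both under C57BL/6 mice of the strain Kit copGFP/+ at an age of 4 weeks, although the methods of the study name smMHC Cre-eGFP/+ mice as the source of muscle tissue. The methods name smMHC Cre-eGFP/+ mice for the sorted SMCs too, and the paper does not give the line of the PDGFRα+ cells. Where SMCs are set beside ICC below, cell type and mouse line therefore cannot be told apart. In Kit copGFP/+ mice 1 copy of *Kit* carries a green fluorescent protein, which marks any cell that uses the *Kit* promoter. Mast cells use it too. The number of mice behind the ICC library is not given in the sources used here. The files hold no counts. The paper gives a range of read numbers that covers colonic SM tissue, but the depth of the ICC library is not given in the sources used here.

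ICC are the pacemaker cells of gut muscle. They generate slow waves, pass them to smooth muscle through gap junctions, and take part in the response to enteric nerves. Ca2+ released from the endoplasmic reticulum opens the Cl- channel ANO1 in these cells, and survival and identity depend on the receptor tyrosine kinase KIT and the ETS-family transcription factor ETV1.

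The genes that define ICC were high in the colonic ICC library. *Kit*, the receptor for stem cell factor, was at 792 FPKM in colonic ICC and 41.4 FPKM in colonic SM tissue, 19.1 times as high, or a log2 ratio of 4.23. It lies on the forward strand of chromosome 5 from 75970941 to 76052747 (NCBIM37, which is mm9). *Ano1* was at 1068 FPKM in colonic ICC and 71.4 FPKM in colonic SM tissue, 14.9 times as high (log2 3.88), and lies on the reverse strand of chromosome 7 from 151774454 to 151937879. *Etv1* was at 246 FPKM in colonic ICC and 39.9 FPKM in colonic SM tissue, 6.15 times as high (log2 2.59), and lies on the forward strand of chromosome 12 from 39505967 to 39594802. *Ano1* was the gene ranked 6 of the whole colonic ICC library. The strain carries a *Kit* reporter on which the ICC may have been sorted, though the sort gate is not given in the sources used here. The level of *Kit* is therefore a check of the label and no finding. In the other sorted colonic libraries *Kit* was at 8.03 FPKM in PDGFRα+ cells and 4.36 FPKM in SMCs, and *Ano1* at 6.67 and 3.80 FPKM. The library thus carries the markers that its label names.

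The promoters of the 3 genes are shown because these genes define the cells of the library. The sequences are RefSeq promoters of GRCm38.p6, another build than that of the files, from 250 bases before to 50 bases after an annotated start, 5′ to 3′ on the strand of the gene. Capitals mark the GC box GGGCGG wherever it reads in that direction or as its complement, a motif chosen after the data were seen. They stand at chr5:75574737-75575036 on the forward strand (*Kit*), chr7:144738524-144738823 on the reverse strand (*Ano1*) and chr12:38779832-38780131 on the forward strand (*Etv1*).
Kit: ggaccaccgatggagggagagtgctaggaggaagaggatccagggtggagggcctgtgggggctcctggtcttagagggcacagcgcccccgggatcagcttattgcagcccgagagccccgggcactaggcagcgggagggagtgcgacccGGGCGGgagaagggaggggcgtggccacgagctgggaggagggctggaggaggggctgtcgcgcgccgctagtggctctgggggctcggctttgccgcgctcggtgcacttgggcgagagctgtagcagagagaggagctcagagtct
Ano1: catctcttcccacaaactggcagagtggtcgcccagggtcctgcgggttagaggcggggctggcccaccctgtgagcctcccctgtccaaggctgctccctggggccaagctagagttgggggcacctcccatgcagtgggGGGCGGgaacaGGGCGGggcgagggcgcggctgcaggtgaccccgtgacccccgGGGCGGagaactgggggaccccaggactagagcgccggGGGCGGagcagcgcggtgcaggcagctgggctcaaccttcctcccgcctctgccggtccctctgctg
Etv1: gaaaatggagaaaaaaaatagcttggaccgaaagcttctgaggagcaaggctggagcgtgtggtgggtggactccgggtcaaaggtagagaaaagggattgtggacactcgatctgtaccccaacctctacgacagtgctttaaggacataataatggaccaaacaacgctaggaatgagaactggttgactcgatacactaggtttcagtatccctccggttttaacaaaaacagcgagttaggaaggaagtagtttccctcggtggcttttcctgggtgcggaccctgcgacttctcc
The *Kit* promoter holds 1 GC box, the *Ano1* promoter 4 and the *Etv1* promoter 0. A GC box is found in the promoters of 38.2% of all 27025 genes that have one in RefSeq. The ETS core CCGGAA, searched on both strands, was found in those of 16.7% of all genes and of 0 of the 6 genes of ICC identity called higher that have a promoter in the table (*Kit*, *Ano1*, *Etv1*, *Prkcq*, *Thbs4* and *Cd44*). A window without these letters says nothing about the binding of ETV1.

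Over all genes the ratio was near even. The median log2 ratio was 0.14, and 79.0% of the 13105 genes lay within 2-fold. A ratio above 0 was found for 59.1% of them, which is the base for counts of ratios above or below 0. Colonic ICC had 187 genes called higher, or 1.43% of those compared, and 577 called lower, or 4.40%. These shares are the base for the counts of calls in each list below. A short list with 0 or 1 calls lies near them and says little about its members. The genes called higher held 7.26% of the total FPKM of colonic ICC against 0.941% of that of colonic SM tissue. The genes called lower held 2.14% in colonic ICC against 17.3% in colonic SM tissue. In bulk tissue, fewer cells of a type and less RNA per cell cannot be told apart, so a lower level in ICC does not say which cells of the tissue held the rest.

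**Figure D1:**
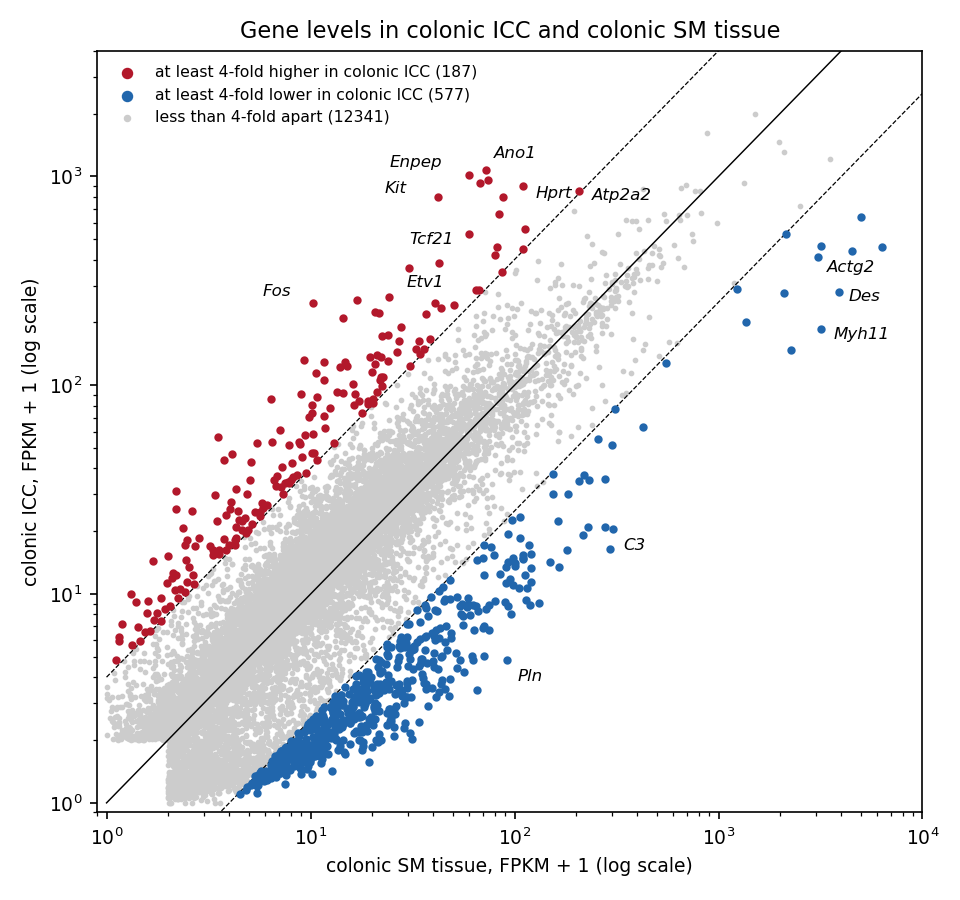
Gene levels in colonic ICC (vertical axis) against colonic SM tissue (horizontal axis), both as FPKM + 1 on log scales, 1 point a gene. Red points are the 187 genes at least 4-fold higher and blue points the 577 at least 4-fold lower in colonic ICC, the solid line marks equal levels, and the dashed lines mark 4-fold.

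Among the 15 genes with the largest ratios, *Fos* was first, at 248 FPKM in colonic ICC and 9.24 FPKM in colonic SM tissue (log2 4.60). *Enpep*, which encodes the membrane-bound glutamyl aminopeptidase that cleaves angiotensin II, was at 1014 FPKM in colonic ICC and 58.8 FPKM in colonic SM tissue (log2 4.09). *Pde4c*, a cAMP phosphodiesterase, was at 55.3 FPKM in colonic ICC and 2.53 FPKM in colonic SM tissue (log2 3.99). These 3 rank beside *Kit* in the size of the difference but differ widely in level. *Edn3*, the peptide endothelin 3, was at 132 FPKM in colonic ICC and 8.29 FPKM in colonic SM tissue (log2 3.84). *Gja1*, the gap junction protein connexin 43, was at 962 FPKM in colonic ICC and 72.9 FPKM in colonic SM tissue (log2 3.70). *Gdf10*, a ligand of the bone morphogenetic protein family, was at 934 FPKM in colonic ICC and 66.5 FPKM in colonic SM tissue (log2 3.79). *Enpep*, *Gja1* and *Gdf10* were, with *Ano1*, among the 10 most abundant genes of colonic ICC, a set otherwise made up of *Col3a1*, *Tmsb4x*, *Eef1a1*, *Actb*, *Myl6* and *Sparc*, none of which was called higher. Others of the 15 were *Spry4*, *Ano1*, *Prkcq*, *Masp1*, *Gpr133*, *Etv4* and *Tll2*, with log2 ratios between 3.53 for *Tll2* and 3.92 for *Spry4*.

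Of 13 measured genes of ICC identity, 12 were compared, 8 were called higher and 2 lower, with a median log2 ratio of 2.86 against 0.14 over all genes. *Prkcq*, protein kinase C theta, was at 208 FPKM in colonic ICC and 13.5 FPKM in colonic SM tissue (log2 3.85). *Gpr20*, an orphan G protein-coupled receptor, was at 114 FPKM in colonic ICC and 9.59 FPKM in colonic SM tissue (log2 3.44). *Slc12a2*, the Na+-K+-Cl- cotransporter NKCC1 that loads cells with Cl-, was at 527 FPKM in colonic ICC and 59.1 FPKM in colonic SM tissue (log2 3.14). Each of these lay at 8.92 times its tissue level or more. *Thbs4*, the matrix protein thrombospondin 4, had a log2 ratio of 3.14, and *Cd44*, the hyaluronan receptor, one of 2.45. *Pde3a*, a phosphodiesterase inhibited by cGMP, was at 133 FPKM in colonic ICC and 41.3 FPKM in colonic SM tissue, short of 4-fold (log2 1.66).

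The genes of that list called lower were receptors and channels. *Tacr1*, the neurokinin 1 receptor for substance P, was at 1.04 FPKM in colonic ICC and 11.1 FPKM in colonic SM tissue (log2 -2.57). *Cacna1h*, a T-type Ca2+ channel, was at 6.89 FPKM in colonic ICC and 36.9 FPKM in colonic SM tissue (log2 -2.26). *Lrig1*, a membrane protein used to mark ICC of the deep muscular plexus in the small intestine, was level, at 45.6 FPKM in colonic ICC and 44.4 FPKM in colonic SM tissue. *Hcn4*, a pacemaker cation channel of the heart, was under 1 FPKM in both colonic libraries, at 0.0905 FPKM in ICC and 0.445 FPKM in SM tissue, and was not compared.

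**Figure D2:**
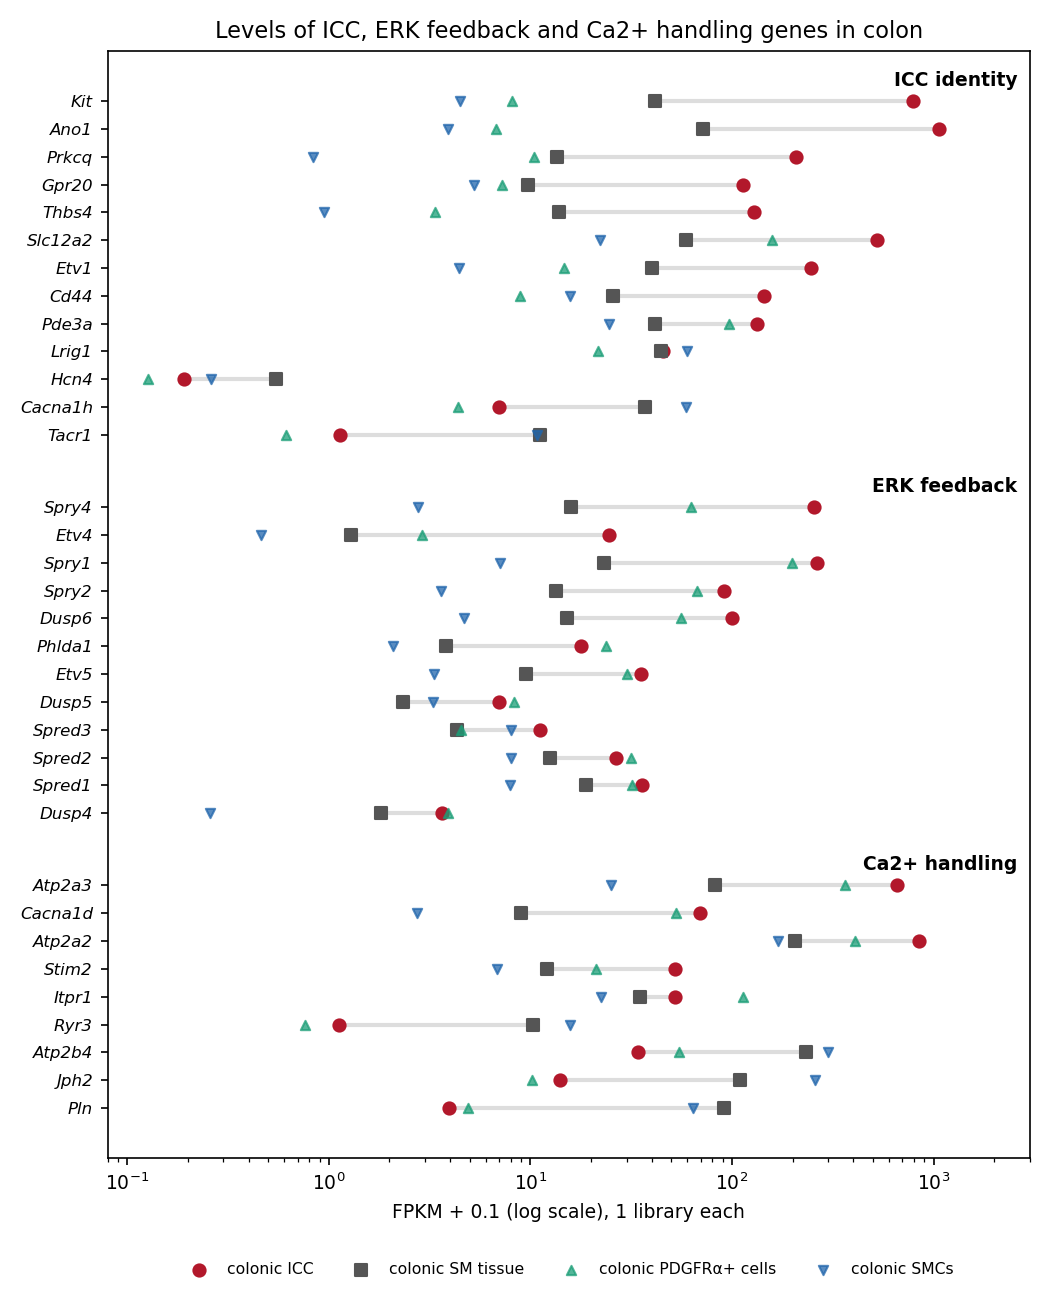
Levels of the genes of ICC identity, of ERK feedback genes and of 9 genes of Ca2+ handling, as FPKM + 0.1 on a log scale, with 1 library for each symbol. Red circles are colonic ICC, grey squares colonic SM tissue, green triangles colonic PDGFRα+ cells and blue triangles colonic SMCs, and a grey bar joins ICC and SM tissue. For *Kit* and *Ano1* the red circle stands right of the other 3 symbols, whereas for *Pln* and *Tacr1* it stands left of SM tissue and SMCs.

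The difference in *Kit*, *Ano1* and *Etv1* was spread over their transcript variants. The table lists 5 variants of *Kit*, of which 2 match known transcripts. TCONS_00223242 was at 271 FPKM in colonic ICC and 11.6 FPKM in colonic SM tissue, and the known TCONS_00205331 was at 271 FPKM in colonic ICC and 17.5 FPKM in colonic SM tissue. TCONS_00205332 was at 113 FPKM in colonic ICC and 2.54 FPKM in colonic SM tissue, 44.5 times as high, and TCONS_00224229 was at 30.9 FPKM in colonic ICC and listed at 0 in colonic SM tissue. Known variants made up 47.6% of *Kit* in colonic ICC and 65.8% in colonic SM tissue.

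The 11 variants of *Ano1* had 10 above the cutoff in each library. The known TCONS_00245941 led, with 269 FPKM in colonic ICC and 19.6 FPKM in colonic SM tissue. TCONS_00249439 took 22.0% of *Ano1* in colonic ICC and 10.1% in colonic SM tissue, at 235 and 7.25 FPKM. TCONS_00259627 was at 217 FPKM in colonic ICC and 13.5 FPKM in colonic SM tissue. Only 1 *Ano1* variant, TCONS_00263791, was above the cutoff in colonic SM tissue (0.343 FPKM) and at 0 in colonic ICC. For *Etv1*, TCONS_00057901 took 41.4% in colonic ICC and 34.7% in colonic SM tissue, at 102 and 13.8 FPKM. The division of reads between variants that share exons is an estimate of the assembly, and these shares have no error.

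**Figure D3:**
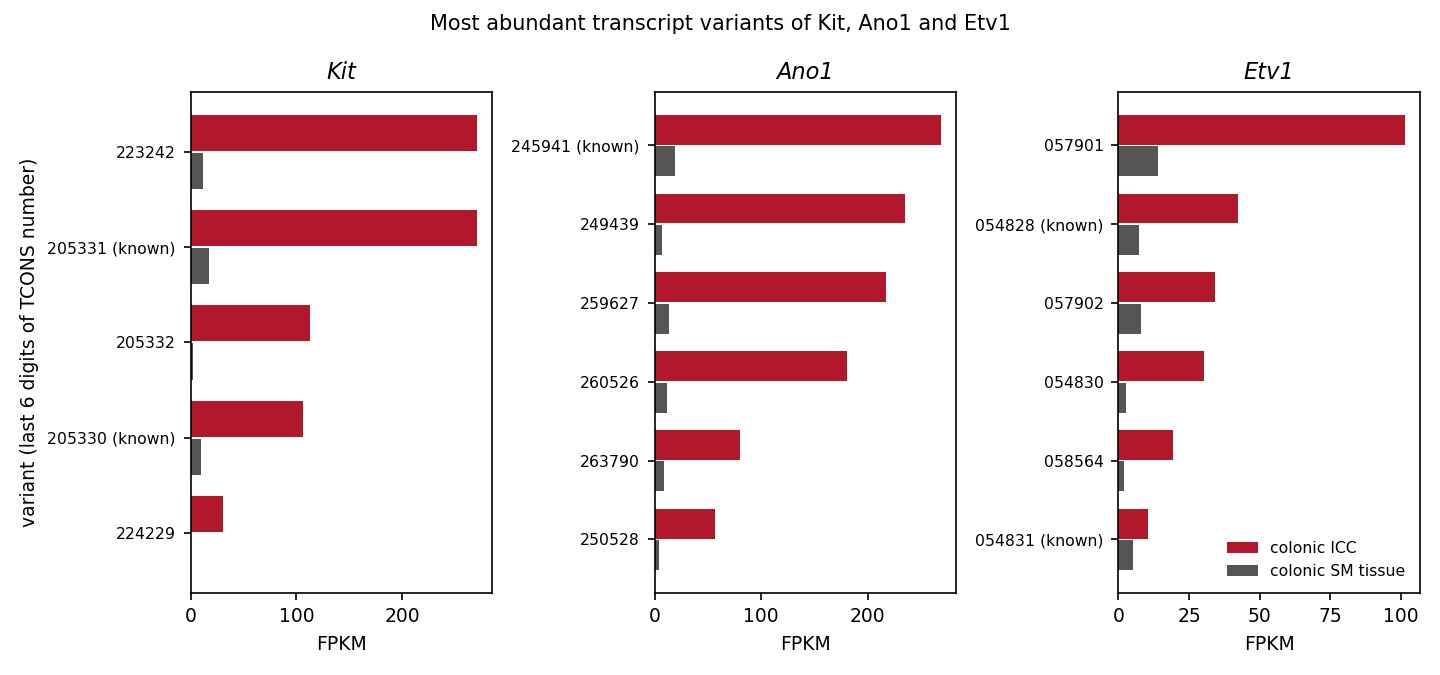
FPKM of the most abundant transcript variants (up to 6) of *Kit*, *Ano1* and *Etv1*, with red bars for colonic ICC above grey bars for colonic SM tissue. Each variant shown is longer in red than in grey, from 271 against 11.6 FPKM for the leading *Kit* variant to 10.4 against 5.00 FPKM for the *Etv1* variant TCONS_00054831.

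KIT signals through the RAS, RAF and ERK kinases, and ERK activity induces its own inhibitors. The kinases and adaptors of the pathway were mostly near their tissue level. Of 28 genes only *Kit* itself was called higher and 0 lower, with a median log2 ratio of 0.06. *Kitl*, the KIT ligand, was at 57.3 FPKM in colonic ICC and 59.7 FPKM in colonic SM tissue. *Mapk3*, which encodes the kinase ERK1, was at 93.7 FPKM in colonic ICC and 76.8 FPKM in colonic SM tissue.

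The feedback and target genes of ERK stood higher. All 12 had ratios above 0, 5 of them were called higher, and their median log2 ratio was 1.89. *Spry4*, a Sprouty inhibitor of receptor tyrosine kinase signalling, was at 254 FPKM in colonic ICC and 15.9 FPKM in colonic SM tissue (log2 3.92). *Etv4*, an ETS factor related to ETV1, was at 24.5 FPKM in colonic ICC and 1.19 FPKM in colonic SM tissue (log2 3.54). *Dusp6*, the phosphatase of ERK, was at 99.9 FPKM in colonic ICC and 15.1 FPKM in colonic SM tissue (log2 2.65). *Spry1* and *Spry2* were the others called higher, with log2 ratios of 3.45 and 2.68. The feedback genes were not particular to the ICC library among the sorted cells. *Spry1* was at 263 FPKM in colonic ICC and 198 FPKM in colonic PDGFRα+ cells, and *Dusp6* at 99.9 FPKM in colonic ICC and 56.0 FPKM in colonic PDGFRα+ cells. Summed over the 12 genes, the level was 869 FPKM in colonic ICC, 521 FPKM in colonic PDGFRα+ cells, 50.3 FPKM in colonic SMCs and 121 FPKM in colonic SM tissue. The activity of KIT and ERK was not tested. The ICC were dispersed and sorted whereas the tissue was not, so induction during dispersal and cell type cannot be told apart for the feedback genes.

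Genes of Ca2+ handling were called in both directions. Of 23 compared, 4 were called higher and 5 lower, and the median log2 ratio was -0.05, but 0.69 over genes with 10 FPKM or more and 0.70 with known variants only. The Ca2+ pumps of the endoplasmic reticulum were high. *Atp2a2*, the pump SERCA2, was at 848 FPKM in colonic ICC and 206 FPKM in colonic SM tissue (log2 2.03). *Atp2a3*, the pump SERCA3, was at 658 FPKM in colonic ICC and 82.7 FPKM in colonic SM tissue (log2 2.98). Phospholamban, the muscle inhibitor of SERCA encoded by *Pln*, went the other way. *Pln* was at 3.85 FPKM in colonic ICC and 90.8 FPKM in colonic SM tissue, the lowest log2 ratio among genes with 10 FPKM or more in either library (-4.24). *Cacna1d*, an L-type Ca2+ channel, was at 69.5 FPKM in colonic ICC and 8.88 FPKM in colonic SM tissue (log2 2.84). *Cacna1c*, the L-type channel of smooth muscle, was at 11.0 FPKM in colonic ICC and 24.6 FPKM in colonic SM tissue, short of 4-fold (log2 -1.09). *Stim2*, a sensor of store Ca2+, was called higher at a log2 ratio of 2.03. *Itpr1*, the inositol trisphosphate receptor, was at 52.2 FPKM in colonic ICC and 35.0 FPKM in colonic SM tissue (log2 0.57). *Ryr3*, *Jph2* and *Atp2b4* were, with *Cacna1h*, the others called lower, and each was also higher in colonic SMCs than in colonic SM tissue.

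Among 18 genes of chloride transport only *Ano1* and *Slc12a2* were called higher and 0 lower. No other anoctamin was called. *Ano6*, a scramblase of many cells, was at 27.5 FPKM in colonic ICC and 34.4 FPKM in colonic SM tissue. *Ano2*, a Ca2+-activated Cl- channel of sensory cells, was at 0.533 FPKM in colonic ICC and 3.49 FPKM in colonic SM tissue. Among 6 gap junction genes only *Gja1* was called, and *Gjc1*, which encodes connexin 45, was at 51.8 FPKM in colonic ICC and 26.5 FPKM in colonic SM tissue (log2 0.94).

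Potassium channel genes were mostly below tissue. Of 22 compared, 5 were called lower and 1 higher, and the median log2 ratio was -1.61. That median was -0.90 with known variants only and -0.59 with 10 FPKM added in place of 1. *Kcnma1*, the pore of the large-conductance Ca2+-activated K+ channel of smooth muscle, was at 2.72 FPKM in colonic ICC and 42.5 FPKM in colonic SM tissue (log2 -3.55). *Kcnk3*, the K2P channel TASK1, was the one called higher, at 83.2 FPKM in colonic ICC and 18.2 FPKM in colonic SM tissue (log2 2.13). *Kcnh2*, the ERG channel, was at 65.2 FPKM in colonic ICC and 29.5 FPKM in colonic SM tissue, short of 4-fold (log2 1.12). Among 17 HCN, TRP and sodium channel genes, *Fam38b*, now named *Piezo2*, a mechanically gated channel, was called higher at 92.3 FPKM in colonic ICC and 12.4 FPKM in colonic SM tissue (log2 2.80), and 3 were called lower, *Scn7a*, *Trpv2* and *Trpc4*.

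Receptors for transmitters were called in both directions. Of 28 compared, 3 were called higher and 7 lower, with a median log2 ratio of -1.07. *Chrm3*, the muscarinic M3 receptor, was at 31.8 FPKM in colonic ICC and 5.75 FPKM in colonic SM tissue (log2 2.28). *Chrm2*, the muscarinic M2 receptor, was at 2.26 FPKM in colonic ICC and 46.7 FPKM in colonic SM tissue (log2 -3.87). The muscarinic receptors thus stood on opposite sides of tissue, and in colonic SMCs *Chrm3* was at 4.79 FPKM and *Chrm2* at 61.2 FPKM. *Npr3*, the clearance receptor of natriuretic peptides, was at 28.9 FPKM in colonic ICC and 2.40 FPKM in colonic SM tissue (log2 3.13). *Ptger3*, the prostaglandin EP3 receptor, was at 80.2 FPKM in colonic ICC and 18.0 FPKM in colonic SM tissue (log2 2.09). *Tacr2*, the neurokinin 2 receptor, was at 0.798 FPKM in colonic ICC and 16.8 FPKM in colonic SM tissue (log2 -3.31). *Htr3a*, *Ednrb*, *Sstr1*, *Cckar* and *Tacr1* completed those called lower.

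Soluble guanylate cyclase, the receptor of nitric oxide, was high in colonic ICC. Its α subunit gene *Gucy1a3* was at 285 FPKM in colonic ICC and 66.1 FPKM in colonic SM tissue (log2 2.09), and its β subunit gene *Gucy1b3* at 184 FPKM in colonic ICC and 51.9 FPKM in colonic SM tissue (log2 1.81). The colonic PDGFRα+ cell library held them at 289 and 170 FPKM. *Prkg1*, the cGMP-dependent kinase, was level at 18.8 FPKM in colonic ICC and 17.3 FPKM in colonic SM tissue. *Nos1*, the nitric oxide synthase of enteric neurons, was the gene of this pathway called lower, at 3.98 FPKM in colonic ICC and 42.7 FPKM in colonic SM tissue (log2 -3.13).

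Transcription factors of gut mesenchyme and of axial position included several of the genes called higher. *Tcf21*, a basic helix-loop-helix factor of visceral mesenchyme, was at 384 FPKM in colonic ICC and 41.5 FPKM in colonic SM tissue (log2 3.18), and at 386 FPKM in colonic PDGFRα+ cells. *Nkx3-2*, a homeobox factor of foregut and skeletal patterning, was at 115 FPKM in colonic ICC and 19.1 FPKM in colonic SM tissue (log2 2.53), and at 17.8 FPKM in colonic PDGFRα+ cells. With *Etv1* these were the 3 of 22 called higher, while *Zeb2* and *Bnc2* were called lower, and the median log2 ratio was 0.67, or 0.05 without the filter on low levels. *Foxf1a*, a forkhead factor of gut mesoderm, was at 164 FPKM in colonic ICC and 52.0 FPKM in colonic SM tissue (log2 1.64).

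Posterior Hox genes, which pattern the hindgut, had a median log2 ratio of 2.00 over 10 compared, with 5 called higher and 0 lower. *Hoxd9* was at 139 FPKM in colonic ICC and 20.1 FPKM in colonic SM tissue (log2 2.73). *Hoxa10* was at 161 FPKM in colonic ICC and 33.1 FPKM in colonic SM tissue (log2 2.25), and at 17.6 FPKM in colonic PDGFRα+ cells and 32.5 FPKM in colonic SMCs. *Hoxd10*, *Hoxd11* and *Hoxa11* were the others called, and the 5 stood higher in colonic ICC than in each of the other 3 colonic libraries. *Hoxd13* was at 34.8 FPKM in colonic ICC and 14.7 FPKM in colonic SM tissue (log2 1.19), and *Hoxb13* at 0.176 FPKM in colonic ICC and 1.81 FPKM in colonic SM tissue. The 14 anterior and central Hox genes compared had a median of -0.11, with *Hoxd8* and *Hoxd4* called higher and *Hoxb5* lower. With known variants only the posterior median was 1.29 and the other 0.33, and over genes with 10 FPKM or more they were 2.10 and 1.15, so the gap between these lists depends on the processing.

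Among 39 secreted growth and guidance factors 4 were called higher and 5 lower, with a median log2 ratio of -0.24. *Bmp4*, a ligand of gut mesenchyme, was at 171 FPKM in colonic ICC and 21.5 FPKM in colonic SM tissue (log2 2.94). *Edn3*, *Bmp7* and *Wnt5b* were the others called higher, and *Gfra1*, *Rspo1*, *Fgf13*, *Pdgfb* and *Sema3c* were called lower. Of 7 prostaglandin genes *Hpgd*, which degrades prostaglandins, was called higher, at 241 FPKM in colonic ICC and 49.4 FPKM in colonic SM tissue (log2 2.26). *Ptgs1*, the cyclooxygenase COX1, was at 2.49 FPKM in colonic ICC and 21.9 FPKM in colonic SM tissue (log2 -2.72). Of 7 caveolar genes only *Cav3* was called, as lower, and of 16 basal lamina genes only *Lama2*, also lower.

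**Figure D4:**
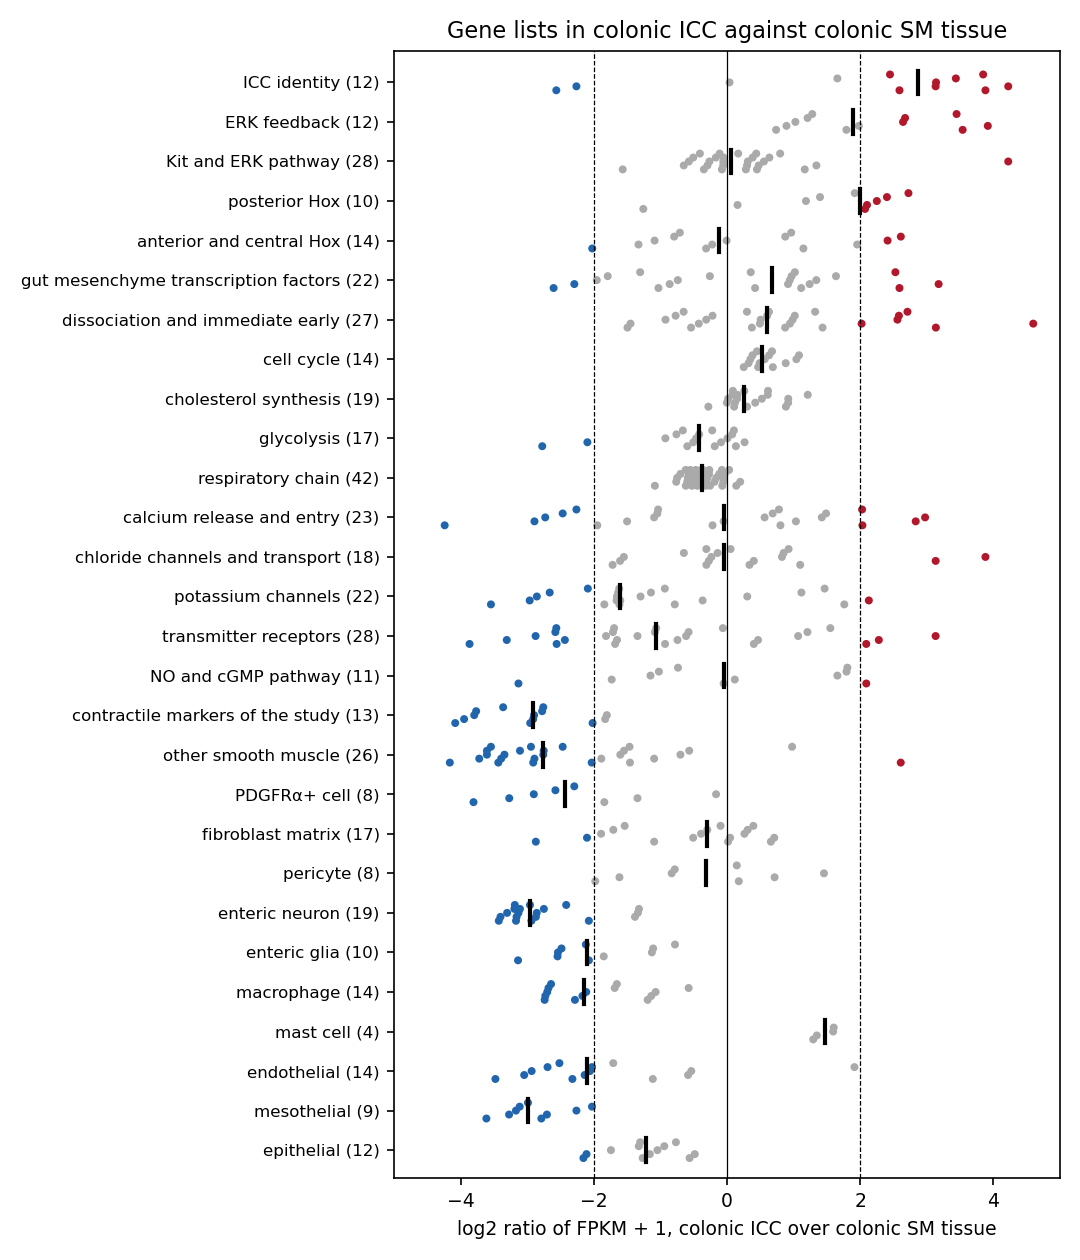
Log2 ratios of colonic ICC over colonic SM tissue for the genes of 28 lists, 1 point a gene, with the number compared in brackets and a black bar at the median of each list. Red and blue points are genes at least 4-fold higher and lower, and dashed lines mark 4-fold. The medians run from -2.99 for mesothelial markers to 2.86 for ICC identity.

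The contractile genes of smooth muscle were low but present. *Myh11*, the smooth muscle myosin heavy chain, was at 186 FPKM in colonic ICC and 3168 FPKM in colonic SM tissue (log2 -4.08). *Actg2*, the γ-actin of visceral muscle and the most abundant gene of colonic SM tissue, was at 461 FPKM in colonic ICC and 6296 FPKM in colonic SM tissue (log2 -3.77). *Des*, the intermediate filament desmin, was at 278 FPKM in colonic ICC and 3877 FPKM in colonic SM tissue (log2 -3.80). Of 13 contractile markers, which the study chose on these libraries, 11 were called lower and the median log2 ratio was -2.91. Together the 13 took 1.58% of the total FPKM in colonic ICC, 1.39% in colonic PDGFRα+ cells, 23.3% in colonic SMCs and 12.2% in colonic SM tissue. The part of smooth muscle RNA in any colonic ICC value was not tested. Of 26 other smooth muscle genes 16 were called lower, among them *Synm* (log2 -4.17) and *Myocd* (log2 -3.11). *Itga8*, the integrin α8 chain, was the 1 called higher, at 125 FPKM in colonic ICC and 19.6 FPKM in colonic SM tissue (log2 2.61).

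Markers of the other cells of the muscle layer were low in colonic ICC as well. All 19 neuron markers compared had ratios below 0 and 16 were called lower (median log2 -2.96), and the neuronal deubiquitinase gene *Uchl1* was at 21.3 FPKM in colonic ICC and 162 FPKM in colonic SM tissue. Of 10 glial markers 6 were called lower (median log2 -2.10), of 14 macrophage markers 8 (median log2 -2.14), of 14 endothelial markers 9 (median log2 -2.10) and of 9 mesothelial markers 9 (median log2 -2.99). *Pecam1*, an adhesion protein of endothelium, was at 0.990 FPKM in colonic ICC and 21.2 FPKM in colonic SM tissue. *Eng*, another endothelial marker, was at 112 FPKM in colonic ICC and 29.0 FPKM in colonic SM tissue, and also at 154 FPKM in colonic PDGFRα+ cells. Epithelial markers had a median of -1.21 and the 2 erythroid genes compared one of -2.44. Pericyte markers were near even, with a median of -0.32 and 0 called of 8.

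Mast cells use *Kit* and could enter a gate set on its reporter. Their markers were found at low levels. Of 11 measured, 7 were under 1 FPKM in colonic ICC and 0 were listed at 0. Their summed level was 9.15 FPKM in colonic ICC and 1.43 FPKM in colonic SM tissue. Of these sums *Gata2* held 0.241 FPKM in colonic ICC and 0.991 FPKM in colonic SM tissue. The 4 markers compared were all 2-fold or more higher in colonic ICC, with a median log2 ratio of 1.47 and 0 called. *Cpa3*, the mast cell carboxypeptidase, was at 2.12 FPKM in colonic ICC and 0.0278 FPKM in colonic SM tissue. *Tpsb2*, a mast cell tryptase, was at 2.23 FPKM in colonic ICC and 0.0684 FPKM in colonic SM tissue. Lymphocyte markers summed to 3.32 FPKM in colonic ICC and 2.26 FPKM in colonic SM tissue, with *Cd3g*, *Cd4*, *Cd8a* and *Ms4a1* at 0 in colonic ICC. Of that list only *Lck*, a T cell kinase, reached 1 FPKM, at 2.51 FPKM in colonic ICC and 0.587 FPKM in colonic SM tissue.

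The colonic ICC library was not low in *Pdgfra*, the growth factor receptor by which PDGFRα+ cells are sorted. It was at 42.2 FPKM in colonic ICC, 230 FPKM in colonic PDGFRα+ cells and 47.4 FPKM in colonic SM tissue. In jejunum it was at 5.63 FPKM in ICC and 57.0 FPKM in SM tissue. The other 7 markers of PDGFRα+ cells did not share that level. *Cd34*, a sialomucin of these cells and of endothelium, was at 1.43 FPKM in colonic ICC, 46.3 FPKM in colonic PDGFRα+ cells and 33.1 FPKM in colonic SM tissue, and 5 of the 8 were called lower in colonic ICC against SM tissue (median log2 -2.44). Summed over the 8, the level was 96.7 FPKM in colonic ICC, 4345 FPKM in colonic PDGFRα+ cells and 410 FPKM in colonic SM tissue. Of the 187 genes called higher, 58 were at 50% of the ICC level or more in colonic PDGFRα+ cells, among them *Tcf21*, *Gucy1a3* and *Spry1*. The part of PDGFRα+ cell RNA in these values was not tested.

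The largest log2 ratios of colonic ICC over the highest of SM tissue, SMCs and PDGFRα+ cells were 4.23 for *Kit*, 4.01 for *Enpep*, 3.88 for *Ano1*, 3.85 for *Prkcq* and 3.84 for *Edn3*. Next among those named came *Masp1*, *Gja1*, *Gpr133*, *Slc27a6*, *Gdf7*, *Gpr20*, *Elovl6*, *Rprm* and *Nrgn*. For these the tissue was the highest of the other libraries in most cases. *Gpr133*, an adhesion receptor now named *Adgrd1*, was at 364 FPKM in colonic ICC, 3.89 FPKM in colonic PDGFRα+ cells, 4.13 FPKM in colonic SMCs and 29.5 FPKM in colonic SM tissue. *Rprm*, the p53 target reprimo, was at 221 FPKM in colonic ICC, 19.2 FPKM in colonic PDGFRα+ cells, 8.34 FPKM in colonic SMCs and 20.6 FPKM in colonic SM tissue. *Masp1*, a serine protease of the lectin pathway of complement, was at 84.7 FPKM in colonic ICC, 0.835 FPKM in colonic PDGFRα+ cells, 1.03 FPKM in colonic SMCs and 5.43 FPKM in colonic SM tissue. Of the 187 genes called higher, 163 were higher in colonic ICC than in both other sorted colonic cell types, and 96 were at least 4-fold above all 3 other colonic libraries. These genes were chosen for a high ICC level over SM tissue, which favours both counts. The shares over all genes compared were not computed, so neither count is a result about how particular the genes are to ICC.

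Immediate early genes, which cells induce rapidly on stimulation or dispersal, were among those called higher. *Fos* and *Egr1*, transcription factors of this kind, were at 248 and 122 FPKM in colonic ICC and at 9.24 and 13.0 FPKM in colonic SM tissue. With *Junb*, *Fosb*, *Ier2* and *Socs3* they were the 6 of 27 called, with a median log2 ratio of 0.60 and 0 called lower. *Jun* was at 42.0 FPKM in colonic ICC and 49.0 FPKM in colonic SM tissue, and *Atf3*, a stress-induced factor, at 1.14 FPKM in colonic ICC and 5.03 FPKM in colonic SM tissue. Summed over the list, the level was 1124 FPKM in colonic ICC, 1338 FPKM in colonic PDGFRα+ cells, 1187 FPKM in colonic SMCs and 480 FPKM in colonic SM tissue. *Fos* was also at 141 FPKM in both colonic PDGFRα+ cells and colonic SMCs. The cells were dispersed and sorted whereas the tissue was not, so induction during dispersal and cell type cannot be told apart for these genes.

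Energy metabolism and growth differed little. All 15 ATP synthase genes had ratios below 0, with a median log2 of -0.48, and 39 of 42 respiratory chain genes did, with a median of -0.38, and 0 of either were called. Glycolytic genes had a median of -0.42 over 17, with *Pfkp* and *Aldoc* called lower. The 14 cell cycle genes all had ratios above 0, with a median of 0.53 and 0 called, and *Top2a*, the topoisomerase of dividing cells, was at 11.8 FPKM in colonic ICC and 8.34 FPKM in colonic SM tissue. Cholesterol synthesis genes had a median of 0.26, and 0 of 19 were called. Fibroblast matrix genes had a median of -0.30 over 17, with *Dcn* and *Mfap5* called lower. *Col3a1*, a fibrillar collagen, was the most abundant gene of colonic ICC, at 1981 FPKM in colonic ICC and 1505 FPKM in colonic SM tissue. It was at 2970 FPKM in colonic PDGFRα+ cells, 251 FPKM in jejunal ICC and 746 FPKM in jejunal SM tissue.

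Among the genes called lower outside the lists, *C3*, the complement component, was at 19.5 FPKM in colonic ICC and 304 FPKM in colonic SM tissue (log2 -3.89). *Rims1*, a scaffold of presynaptic vesicle release, was at 2.47 FPKM in colonic ICC and 64.6 FPKM in colonic SM tissue (log2 -4.24), and at 64.5 FPKM in colonic SMCs. *Fabp4*, a fatty acid carrier of adipocytes and endothelium, was at 4.05 FPKM in colonic ICC and 69.9 FPKM in colonic SM tissue (log2 -3.81). Of the 577 genes called lower, 132 were at the tissue level or above it in colonic SMCs, 33 in colonic PDGFRα+ cells, and 416 were below tissue in both. These genes were chosen for a high tissue level, which favours the last count. The shares over all genes compared were not computed, so the counts do not say which cells hold these transcripts. *Car3*, *Cnn1*, *Gm1987*, *Plin4* and *Sorbs2* completed the 15 lowest, with log2 ratios between -3.96 for *Car3* and -3.75 for *Sorbs2*.

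Jejunal ICC and jejunal SM tissue were compared in the same way. They share no library with the colonic pair but stand in a table that was processed separately. Of 12742 genes compared in jejunum, 207 were called higher in jejunal ICC (1.62%) and 346 lower (2.72%). Of the 187 genes called higher in colonic ICC, 55 were also called in jejunal ICC, or 29.4% of the colonic and 26.6% of the jejunal list. Of the 577 called lower in colonic ICC, 224 were also called in jejunal ICC, or 38.8% of the colonic and 64.7% of the jejunal list. Of the 160 genes called higher in colonic ICC that were compared in jejunum, the 55 included, 130 or 81.3% had a ratio above 0 there, with a median log2 ratio of 1.23. Of the others, 15 were 2-fold or more lower in jejunal ICC than in jejunal SM tissue. Over all genes compared in jejunum 52.5% had a ratio above 0, with a median of 0.04. Of all 12742, 1481 were 2-fold or more lower in jejunal ICC, so the count of 15 is not above the share over all genes.

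The genes that define ICC were high in both organs. *Kit* was at 468 FPKM in jejunal ICC and 29.4 FPKM in jejunal SM tissue (log2 3.95), and *Ano1* at 703 FPKM in jejunal ICC and 67.5 FPKM in jejunal SM tissue (log2 3.36). Several of the largest colonic ratios were absent from jejunum. *Gdf10* was at 28.3 FPKM in jejunal ICC and 36.1 FPKM in jejunal SM tissue, against a colonic log2 ratio of 3.79. *Rprm* was at 1.31 FPKM in jejunal ICC and 1.79 FPKM in jejunal SM tissue. *Gdf7*, a ligand of the same family as *Gdf10*, was at 128 FPKM in colonic ICC and 10.6 FPKM in colonic SM tissue, and at 0.542 FPKM in jejunal ICC and listed at 0 in jejunal SM tissue. *Fos* was at 230 FPKM in jejunal ICC and 95.2 FPKM in jejunal SM tissue, so that its tissue levels differed more between the organs than its ICC levels. *Pde4c* stood further apart in jejunum, at 901 FPKM in jejunal ICC and 20.7 FPKM in jejunal SM tissue (log2 5.38). *Hcn4* was compared in jejunum only, at 39.1 FPKM in jejunal ICC and 8.33 FPKM in jejunal SM tissue (log2 2.10).

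**Figure D5:**
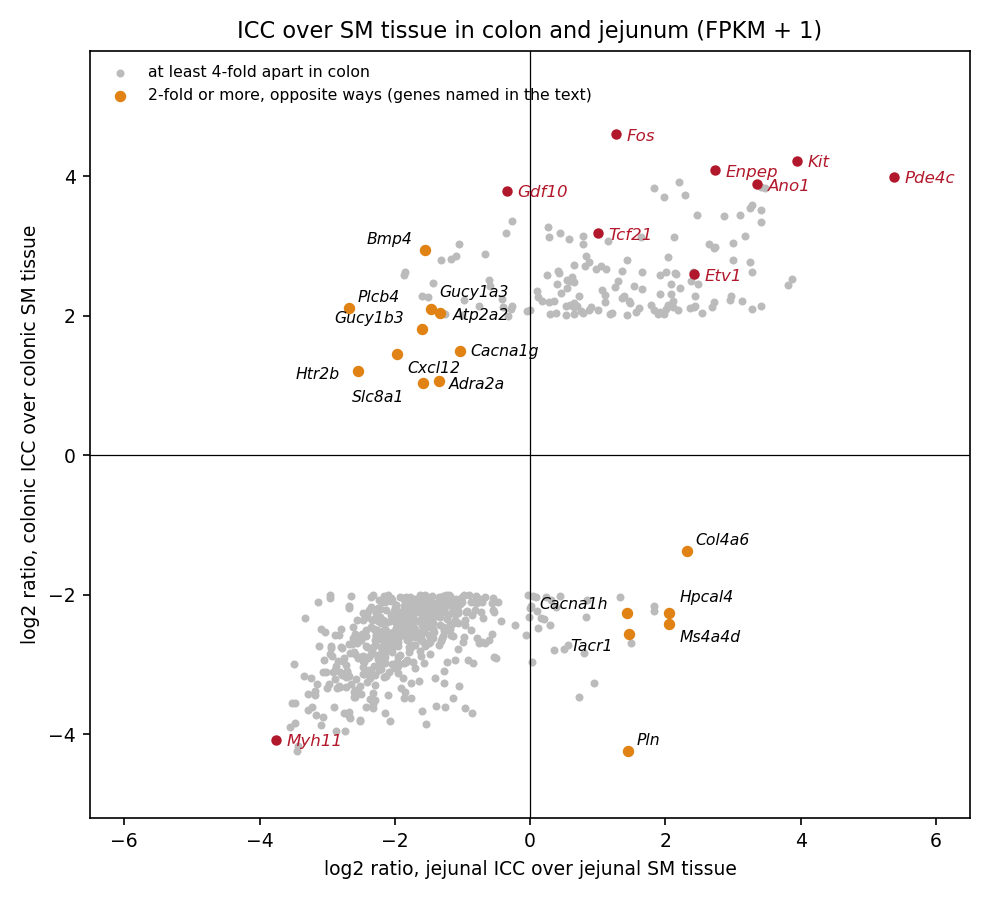
Log2 ratios of ICC over SM tissue in colon (vertical axis) and in jejunum (horizontal axis), on FPKM + 1. Grey points are genes at least 4-fold apart in colon, and red points are named genes of the text. Orange points are 13 named genes that differed 2-fold or more in opposite directions in the 2 organs, and 3 others 4-fold or more. Other genes that differed in opposite directions were left grey. *Kit* stands at 4.23 in colon and 3.95 in jejunum, and *Pln* at -4.24 in colon and 1.44 in jejunum.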

How the data were processed

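RNA from sorted colonic ICC and from unsorted colonic SM tissue was sequenced as 1 library each, from kits that the labels name as mirVana and TruSeq. Reads were aligned to mm9 with TopHat 1.4.1, and transcripts were assembled and quantified with Cufflinks 2.0.2 (Cuffdiff is also named in the submitters' processing notes). The authors deposited FPKM for each transcript variant, with the jejunal, colonic and mucosal libraries in separate tables. FPKM is scaled to transcript length and library size and holds no counts, so counting error is unknown, as is the depth of the ICC library.

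Variants under 0.025 FPKM were set to 0 and variants of a symbol were summed. Ratios are log2 of FPKM + 1 over FPKM + 1, over genes with 1 FPKM or more in either library, with a threshold of 4-fold. No test was run, since each side is 1 library. The steps were tested on simulated data. A named gene is a member of a list, 1 of the 15 largest ratios in either direction with 10 FPKM or more in 1 library, 1 of the 10 most abundant of a library, or 1 of the 15 furthest above the other colonic libraries. The comparison, the 40 gene lists and the thresholds were chosen with earlier results of these data known, and further gene families and the GC box were chosen after the data were seen. A gene that this rule names is not reported here. Gene positions are from gencode vM1 on NCBIM37 and promoters from RefSeq on GRCm38.p6, where *Gpr20* and *Slc12a2* of the ICC identity genes called higher have none. Alternatives were other cutoffs, pseudocounts, scales and filters, and known variants only. The 4 remaining FPKM columns (jejunal SMCs and PDGFRα+ cells, and the mucosal libraries) were not used. Values were computed in Python 3.11.15 (pandas 2.3.3 and numpy 2.4.6), and plots were drawn with matplotlib 3.10.9.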

Additional observations from a re-analysis of the deposited data

Results flagged for a closer look

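For 13 of the 578 named genes compared in both organs, the ratio of ICC to SM tissue was 2-fold or more in one direction in colon and 2-fold or more in the other direction in jejunum. The share over all genes compared in both organs was not computed, so the count is no result about the named genes. Of 160 genes called higher in colonic ICC and compared in jejunum, 15 were 2-fold or more lower in jejunal ICC. Of 564 called lower and compared in jejunum, 9 were 2-fold or more higher there. Over all 12742 genes compared in jejunum, 1481 were 2-fold or more lower and 1034 were 2-fold or more higher in jejunal ICC. Neither count is above those shares. The difference between the organs was not tested, since each value rests on 1 library a side and the tables were processed separately. Higher in colonic ICC and lower in jejunal ICC were *Adra2a* (log2 1.07 in colon and -1.35 in jejunum), *Atp2a2* (2.03 and -1.33), *Bmp4* (2.94 and -1.56), *Cacna1g* (1.49 and -1.04), *Cxcl12* (1.45 and -1.96), *Gucy1a3* (2.09 and -1.47), *Gucy1b3* (1.81 and -1.60), *Htr2b* (1.21 and -2.54) and *Slc8a1* (1.04 and -1.59). Lower in colonic ICC and higher in jejunal ICC were *Cacna1h* (-2.26 and 1.44), *Col4a6* (-1.37 and 2.32), *Pln* (-4.24 and 1.44) and *Tacr1* (-2.57 and 1.46).

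SERCA2 and its inhibitor phospholamban moved against each other in both organs. *Atp2a2* was at 848 FPKM in colonic ICC and 206 FPKM in colonic SM tissue, and at 133 FPKM in jejunal ICC and 337 FPKM in jejunal SM tissue. *Pln* was at 3.85 FPKM in colonic ICC and 90.8 FPKM in colonic SM tissue, and at 203 FPKM in jejunal ICC and 73.9 FPKM in jejunal SM tissue. *Gucy1a3*, a subunit of the nitric oxide receptor, was at 285 FPKM in colonic ICC and 66.1 FPKM in colonic SM tissue, and at 21.6 FPKM in jejunal ICC and 61.5 FPKM in jejunal SM tissue. *Pdgfra* was at 42.2 FPKM in colonic ICC and 5.63 FPKM in jejunal ICC, and *Gucy1a3*, *Gucy1b3*, *Cxcl12* and *Cacna1g* were at 289, 170, 286 and 151 FPKM in colonic PDGFRα+ cells. The part of such cells in these values was not tested. *Htr2b*, a serotonin receptor, was at 44.9 FPKM in colonic ICC and 1.74 FPKM in colonic PDGFRα+ cells.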

How the results depend on the processing

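A count or ratio within 1.5 times its reported value was taken as the same, and a percentage within 10 points. The 187 genes called higher became 308 with a cutoff of 1 FPKM, 346 with a pseudocount of 0.1, 58 with a pseudocount of 10 and 310 with libraries rescaled to TPM. The 577 called lower became 1305 with a pseudocount of 0.1, 85 with a pseudocount of 10 and 971 with TPM. TPM values are larger than FPKM here, while the added 1 and the filter of 1 were kept. Both therefore weighed less with TPM, and 14538 genes were compared. With a pseudocount of 10, 94.1% of genes lay within 2-fold and 40.6% of the calls were higher ones, against 24.5% as reported. The remaining alternatives left both counts within 1.5 times. Median ratio scaling moved the median of all genes by -0.10. Over the alternatives the log2 ratio of *Kit* ran between 3.74 and 4.32, of *Ano1* between 3.72 and 3.97 and of *Etv1* between 2.02 and 2.69. Of 456 values of list medians 51 moved and 3 reversed, the moved ones including those of Ca2+ handling, potassium channels and both Hox lists. The lymphocyte median, which rested on 1 gene as reported, was -1.04 with TPM, where more genes of that list passed the filter. The median of nicotinic subunits was 0.019 without the filter and 0.17 with a filter of 10 FPKM. The 3 reversed medians thus cover other members than the reported ones, and they do not show that a gene changed sign. No paired analysis was possible because each condition has 1 library. Without replicates or counts, biological spread and counting error are unknown for every value, and differences of genes near 1 FPKM depend most on the pseudocount.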

Other observations

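Further gene families, chosen after the data were seen, are given as values. Ligands of the BMP and GDF family had 4 of 12 called higher and 0 lower, with a median log2 ratio of 0.87. These were *Gdf10*, *Gdf7*, *Bmp4* and *Bmp7*, the last at 10.4 FPKM in colonic ICC and 1.48 FPKM in colonic SM tissue. Secreted antagonists of the family had 3 of 14 called higher and 3 lower. *Chrd*, which encodes chordin, was at 39.6 FPKM in colonic ICC and 6.27 FPKM in colonic SM tissue, and *Kcp* and *Fst* were the others called higher. *Grem1*, which encodes gremlin 1, was at 4.20 FPKM in colonic ICC and 50.7 FPKM in colonic SM tissue, and *Chrdl2* and *Sostdc1* were also called lower.

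Of 7 nicotinic receptor subunits compared, 2 were called higher and 2 lower. *Chrnb1*, the β subunit of the muscle receptor, was at 105 FPKM in colonic ICC and 10.6 FPKM in colonic SM tissue, and *Chrna6*, a neuronal α subunit, at 17.2 FPKM in colonic ICC and 1.48 FPKM in colonic SM tissue. *Chrna3*, the α subunit of ganglionic receptors, was at 2.88 FPKM in colonic ICC and 30.4 FPKM in colonic SM tissue, and *Chrnb4* was the other called lower. The median of the 7 compared was -1.05, a value that turned above 0 without the filter on low levels.

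Genes of fatty acid synthesis and uptake had 3 of 20 called higher. *Elovl6*, a fatty acid elongase, was at 224 FPKM in colonic ICC and 19.8 FPKM in colonic SM tissue, and *Srebf1*, the regulator of lipid synthesis, at 91.7 FPKM in colonic ICC and 20.3 FPKM in colonic SM tissue. *Slc27a6*, a fatty acid transporter, was the other called higher. *Cd36*, a fatty acid uptake receptor of endothelium and adipocytes, was called lower at 0.964 FPKM in colonic ICC and 20.3 FPKM in colonic SM tissue. Of 17 cyclic nucleotide phosphodiesterases *Pde4c* and *Pde9a* were called higher, and *Pde9a*, which degrades cGMP, was at 162 FPKM in colonic ICC and 26.2 FPKM in colonic SM tissue.

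Among 15 ubiquitous genes only *Hprt*, a purine salvage enzyme often used as a reference gene, was called higher. It was at 904 FPKM in colonic ICC and 109 FPKM in colonic SM tissue (log2 3.04), and at 24.1 FPKM in colonic PDGFRα+ cells and 22.5 FPKM in colonic SMCs. Jejunum had 637 FPKM in ICC and 101 FPKM in SM tissue (log2 2.65). Both listed variants of *Hprt* were higher, at 667 and 237 FPKM in colonic ICC against 86.7 and 22.7 FPKM in colonic SM tissue. The median of the list was -0.05. A ratio to *Hprt* would therefore set most genes lower in colonic ICC than these FPKM do.

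Outside the named genes, 3 differed 4-fold or more in opposite directions in the 2 organs and were chosen after their values were seen. *Plcb4*, a phospholipase C that releases inositol trisphosphate, had a log2 ratio of 2.11 in colon and -2.67 in jejunum, with 166 FPKM in colonic ICC and 37.6 FPKM in colonic SM tissue. *Hpcal4*, a neuronal Ca2+ sensor, had -2.26 in colon and 2.06 in jejunum, and *Ms4a4d* had -2.42 in colon and 2.06 in jejunum.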
